A study of Mus musculus with 15 samples.

Results

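Marker genes of fibro-adipogenic progenitors, the connective tissue progenitors of skeletal muscle, were followed across 4 groups of mouse tibialis anterior, the muscle at the front of the shin. The set held 10 genes of the 55416 in the deposited tables: Pdgfra (ENSMUSG00000029231), Pi16 (ENSMUSG00000024011), Dpp4 (ENSMUSG00000035000), Cd34 (ENSMUSG00000016494), Ly6a (ENSMUSG00000075602), Scara5 (ENSMUSG00000022032), Osr1 (ENSMUSG00000048387), Dpep1 (ENSMUSG00000019278), Efemp1 (ENSMUSG00000020467) and Cd55 (ENSMUSG00000026399). All were listed by name, and Scara5, Osr1, Dpep1, Efemp1 and Pi16 had been picked because their levels differed between the antibody groups of these libraries. For those 5 genes the differences between antibody groups are therefore given as descriptions, without a test.

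RNA sequencing was done on muscle of male C57BL/6 mice (substrain C57BL/6NCrlOri), 6 to 8 weeks old. In 3 groups, tumour cells of the line KrasIKKaL had been instilled through the trachea. Of these tumour-bearing groups, 1 received anti-PD-L1, which blocks an immune checkpoint ligand (200 µg per kg, n = 3), 1 received anti-CD8a, directed at a surface protein of cytotoxic T cells (200 µg, n = 3), and 1 received a rat IgG isotype antibody (IgG, dose not stated, n = 4). The therapeutic antibodies were injected into the abdomen 3 times a week. Control mice had no tumour, and the labels name no antibody for them (n = 5), so in every comparison with control the tumour and the injection changed together and their parts cannot be told apart. The series addresses muscle wasting and adverse immune effects of checkpoint therapy.

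Fibro-adipogenic progenitors lie between muscle fibres, carry the platelet-derived growth factor receptor alpha and make much of the muscle's matrix. They support satellite cells, the stem cells of muscle fibres, through secreted factors, and in damaged or diseased muscle they can give rise to scar tissue and fat. Pi16 and Dpp4 are known from fibroblasts around vessels and fascia that are regarded as early progenitors, whereas other fibroblasts of the same tissue lack them.

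Libraries held 15894804 to 22459348 counts, and 14372 genes passed the filter on low counts, all 10 markers among them. The smallest marker count was 13, for Dpp4 in an IgG library. Levels are TMM-normalised CPM, which corrects for library size but not for gene length. A count of 0 would allow a level of up to 0.134 to 0.189 CPM, which is 3 counts over the library's total before TMM scaling, and this floor covers counting error only. IgG replicate 2 and anti-PD-L1 replicate 2 lay apart from their groups in earlier results of these data, so counts of called markers are also given with both left out. Whether each library came from its own mouse is not stated, so p-values measure the spread between these libraries, which may be technical. The tissue label matched high Des, the intermediate filament of muscle fibres, at 2458 to 4585 CPM. In bulk muscle, fewer cells of a type and less RNA per cell cannot be told apart.

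Ly6a, a small surface protein that also marks endothelium, was the most abundant marker per transcript length in all 4 groups. Its mean level in the deposited TPM, which corrects for transcript length, was 99.5 with anti-PD-L1, 95.1 with anti-CD8a, 69.4 with IgG and 106 in control. Dpp4, a surface peptidase, was the least abundant in all 4, at 1.67, 0.813, 0.290 and 0.820 TPM in the same order of groups. Pi16, a peptidase inhibitor, changed its place most: it ranked 7 with anti-PD-L1, 4 with anti-CD8a, 9 with IgG and 6 in control, with mean levels of 8.94, 9.84, 0.693 and 9.94 TPM. Dpep1, a membrane dipeptidase, ranked 2 with anti-PD-L1 at 29.3 TPM, against 6 with anti-CD8a at 8.19 TPM, 3 with IgG at 12.2 TPM and 4 in control at 11.7 TPM. TPM depends on the other genes of a library, and the tests between groups rest on counts.

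**Figure D1:**
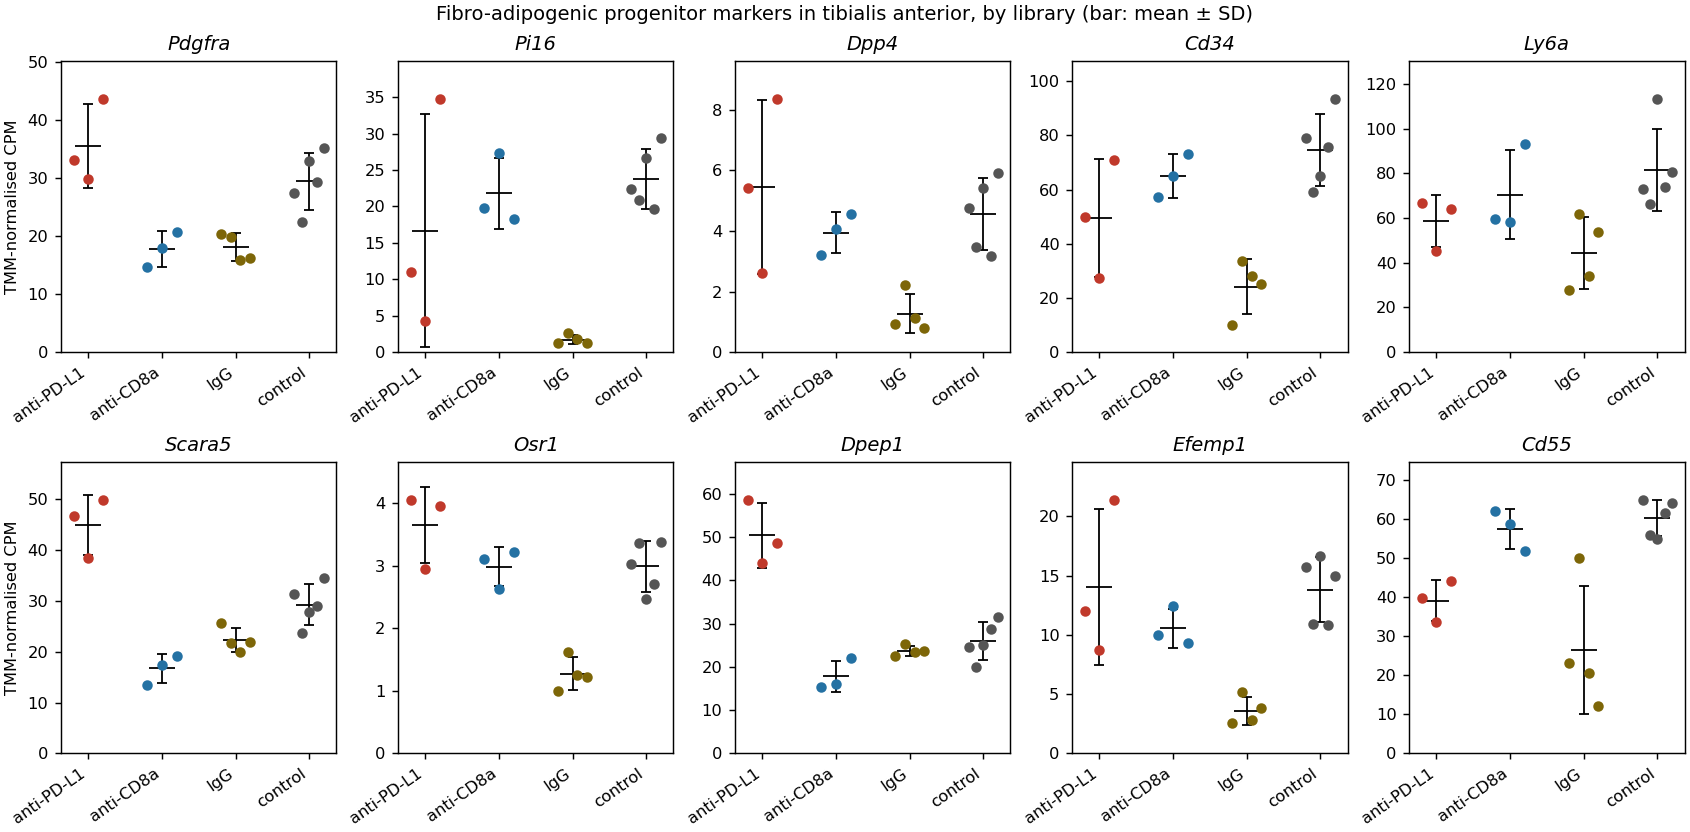
Levels of the 10 markers by library, in TMM-normalised CPM on axes that start at 0, with a panel per gene. Points are libraries and bars are mean ± SD for anti-PD-L1 (n = 3), anti-CD8a (n = 3), IgG (n = 4) and control (n = 5). Pi16 lies between 1.28 and 2.59 CPM in IgG, below every other library, while Dpep1 lies between 44.0 and 58.6 CPM with anti-PD-L1, above every other library.

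Pi16 showed the widest differences of the set. It had 11.0, 4.29 and 34.7 CPM with anti-PD-L1, 19.8, 27.4 and 18.3 CPM with anti-CD8a, 1.303, 2.59, 1.76 and 1.28 CPM with IgG, and 22.4, 20.9, 26.7, 19.6 and 29.4 CPM in control. All 4 IgG libraries lay below the 11 others, the anti-CD8a libraries overlapped control, and the anti-PD-L1 libraries spread from replicate 2, near IgG, to replicate 3, above every control. Efemp1, a matrix glycoprotein of the fibulin family, had 12.0, 8.74 and 21.4 CPM with anti-PD-L1, 9.97, 12.4 and 9.31 CPM with anti-CD8a, 2.545, 5.18, 2.77 and 3.85 CPM with IgG, and 15.7, 10.9, 16.6, 10.9 and 14.9 CPM in control. Its IgG libraries were again below the 11 others, and the other 3 groups overlapped each other. Dpp4 had 5.43, 2.61 and 8.36 CPM with anti-PD-L1, 3.21, 4.08 and 4.55 CPM with anti-CD8a, 0.931, 2.23, 1.13 and 0.794 CPM with IgG, and 4.77, 3.48, 5.41, 3.19 and 5.93 CPM in control. Here too the IgG range lay below the other groups, with IgG replicate 2 close to anti-PD-L1 replicate 2. For all 3 genes anti-PD-L1 replicate 3 was the highest and replicate 2 the lowest of the anti-PD-L1 libraries.

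Osr1, a zinc finger transcription factor of connective tissue progenitors, was scarce in all groups. It had 4.05, 2.96 and 3.96 CPM with anti-PD-L1, 3.10, 2.63 and 3.22 CPM with anti-CD8a, 0.993, 1.63, 1.26 and 1.22 CPM with IgG, and 3.03, 3.36, 2.47, 2.705 and 3.39 CPM in control. The IgG libraries lay below all others, and the other 3 groups overlapped.

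Cd34, a surface sialomucin shared with endothelium and blood progenitors, had 50.0, 27.3 and 71.0 CPM with anti-PD-L1, 57.1, 65.0 and 73.2 CPM with anti-CD8a, 10.05, 33.5, 28.2 and 25.2 CPM with IgG, and 79.1, 59.2, 65.2, 75.7 and 93.4 CPM in control. The IgG range was below anti-CD8a and control but overlapped anti-PD-L1 through the low anti-PD-L1 replicate 2. Cd55, which protects cells from complement, had 39.6, 33.55 and 44.0 CPM with anti-PD-L1, 61.9, 58.6 and 51.6 CPM with anti-CD8a, 23.15, 49.96, 20.6 and 12.0 CPM with IgG, and 64.8, 55.8, 54.9, 61.5 and 63.9 CPM in control. The anti-PD-L1 libraries were below every anti-CD8a and control library, and IgG replicate 2 stood above the other IgG libraries and above all 3 anti-PD-L1 libraries. Ly6a had 66.6, 45.2 and 64.2 CPM with anti-PD-L1, 59.6, 58.4 and 93.3 CPM with anti-CD8a, 27.8, 61.7, 34.0 and 53.9 CPM with IgG, and 72.9, 66.3, 113, 74.05 and 80.7 CPM in control. Its IgG range was below control and overlapped both other antibody groups.

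Pdgfra, the growth factor receptor that defines these cells, followed another order. It had 33.1, 29.9 and 43.6 CPM with anti-PD-L1, 14.6, 17.9 and 20.8 CPM with anti-CD8a, 20.4, 19.9, 15.88 and 16.25 CPM with IgG, and 27.4, 22.46, 32.9, 29.3 and 35.2 CPM in control. The anti-CD8a and IgG libraries overlapped each other and lay below every anti-PD-L1 and control library. Scara5, a receptor for ferritin, had 46.8, 38.5 and 49.9 CPM with anti-PD-L1, 13.5, 17.3 and 19.3 CPM with anti-CD8a, 25.7, 21.7, 20.0 and 21.9 CPM with IgG, and 31.4, 23.6, 27.9, 29.1 and 34.5 CPM in control. Its order was anti-PD-L1, control, IgG and anti-CD8a, and only the neighbours control and IgG overlapped, through control replicate 2 and IgG replicate 1. Dpep1 had 58.6, 44.0 and 48.6 CPM with anti-PD-L1, 15.3, 16.05 and 21.98 CPM with anti-CD8a, 22.47, 25.3, 23.3 and 23.6 CPM with IgG, and 24.6, 20.04, 25.1, 28.7 and 31.6 CPM in control. The anti-PD-L1 libraries were above all others, while control overlapped both IgG and anti-CD8a.

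The balance between these genes differed within libraries as well. The ratio of Pi16 to Scara5 CPM ranged from 0.111 to 0.697 with anti-PD-L1, 0.949 to 1.58 with anti-CD8a, 0.0507 to 0.119 with IgG and 0.675 to 0.957 in control. The ratio of Pi16 to Dpep1 CPM ranged from 0.0974 to 0.714, 0.831 to 1.71, 0.0544 to 0.102 and 0.684 to 1.06 in the same order of groups. Between Pdgfra and Scara5 the ratio moved little, from 0.707 to 0.875 with anti-PD-L1, 1.03 to 1.08 with anti-CD8a, 0.741 to 0.917 with IgG and 0.871 to 1.18 in control. Such ratios show unequal differences between genes, not that 1 of them stayed level, and the pairs were chosen after their values were seen.

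Promoters are shown for the 3 genes that were lowest in IgG relative to control, Pi16, Efemp1 and Dpp4, and for Dpep1, which was not. The sequences are RefSeq windows of 250 bases before to 50 after the gene start, in GRCm38.p6, and 7 of the 10 markers matched an entry. Capitals mark matches, on either strand, to TATAAA (the TATA element), GGGCGG (a GC box), TGANTCA (bound by AP-1), GGAATG (bound by TEAD factors) or CAGCTG (an E-box).
Pi16, chr17:29318632-29318931, + strand: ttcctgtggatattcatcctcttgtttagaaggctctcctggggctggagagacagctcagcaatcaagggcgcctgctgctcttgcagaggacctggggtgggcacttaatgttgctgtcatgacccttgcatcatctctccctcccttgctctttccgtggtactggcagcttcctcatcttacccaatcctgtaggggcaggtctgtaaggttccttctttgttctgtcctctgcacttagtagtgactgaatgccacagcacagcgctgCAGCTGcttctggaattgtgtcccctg
Efemp1, chr11:28852955-28853254, + strand: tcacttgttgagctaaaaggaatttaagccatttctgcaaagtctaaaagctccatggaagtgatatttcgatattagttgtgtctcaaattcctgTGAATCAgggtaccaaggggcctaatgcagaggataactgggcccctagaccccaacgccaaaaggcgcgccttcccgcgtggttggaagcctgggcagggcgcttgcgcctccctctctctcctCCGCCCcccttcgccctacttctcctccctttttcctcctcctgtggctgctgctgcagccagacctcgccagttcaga
Dpp4, chr2:62412182-62412481, - strand: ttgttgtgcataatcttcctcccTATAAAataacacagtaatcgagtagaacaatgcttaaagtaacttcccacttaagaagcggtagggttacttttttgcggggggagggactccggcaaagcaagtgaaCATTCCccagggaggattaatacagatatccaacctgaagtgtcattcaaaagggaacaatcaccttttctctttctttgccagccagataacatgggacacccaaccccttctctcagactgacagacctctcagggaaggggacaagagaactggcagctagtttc
Dpep1, chr8:123185985-123186284, + strand: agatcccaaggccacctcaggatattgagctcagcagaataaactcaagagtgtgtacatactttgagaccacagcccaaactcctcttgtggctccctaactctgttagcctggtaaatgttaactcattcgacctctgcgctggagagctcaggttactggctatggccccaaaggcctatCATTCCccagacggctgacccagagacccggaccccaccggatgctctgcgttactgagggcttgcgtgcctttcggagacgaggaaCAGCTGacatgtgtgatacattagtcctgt
No motif was found in all 4 windows, and no matches overlapped. The E-box stood in the windows of Pi16, Dpep1 and Cd55, and it occurs in 16.3% of all 32851 promoter windows. The GGAATG motif, read as CATTCC, stood in those of Dpp4 and Dpep1 and occurs in 14.7% of windows. Efemp1 held TGANTCA (7.80% of windows) and a GC box (35.7%), and the Cd55 window held the GC box too. Dpp4 held TATAAA (13.6%), with its first base at -227 from the gene start. The Pdgfra and Cd34 windows held none of the 5 motifs. These matches describe letters only, and binding was not measured.

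In tumour-bearing mice given IgG, 9 of the 10 markers were lower than in control and none was higher. Over all genes tested, 28.4% were called lower and 30.2% higher, 58.5% in either direction, at an adjusted p under 0.05 in edgeR's quasi-likelihood test. The median log2 fold change of the markers was -1.21, against -0.02 over all genes. Of the 10 markers, 8 had IgG ranges below control, against 23.4% of all genes, and none had a range above, against 24.3%. The 5 picked genes were chosen by their measured levels in the antibody groups, IgG among them. Their tests against control are therefore not independent support, and the counts and median of all 10 markers include them. The genes that were not picked, Pdgfra, Dpp4, Cd34, Ly6a and Cd55, were each called lower, with IgG ranges below control. Their log2 fold changes ran from -1.83 for Dpp4 to -0.70 for Pdgfra.

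Pi16 fell most, to 1.74 ± 0.611 CPM (SD, n = 4) in IgG, against 23.8 ± 4.10 CPM (SD, n = 5) in control, which is -3.77 ± 0.48 in log2 (SE, edgeR adjusted p = 1.03e-05). Efemp1 fell by 1.94 ± 0.27 on the log2 scale (adjusted p = 2.41e-05) and Dpp4 by 1.83 ± 0.36 (adjusted p = 0.000454). Among the more abundant surface markers, Cd34 fell by 1.62 ± 0.30 (adjusted p = 0.000278), Cd55 by 1.19 ± 0.28 (adjusted p = 0.00167) and Ly6a by 0.88 ± 0.24 (adjusted p = 0.00521). The transcription factor Osr1 fell by 1.23 ± 0.20 (adjusted p = 0.000107). Pdgfra fell less, to 18.1 ± 2.37 CPM (SD, n = 4) in IgG, against 29.5 ± 4.96 CPM (SD, n = 5) in control, a log2 change of -0.70 ± 0.16 (adjusted p = 0.0015). Scara5 fell by 0.39 ± 0.14 (adjusted p = 0.0234), with overlapping ranges. Dpep1 did not pass, at -0.14 ± 0.15 (adjusted p = 0.434). With both replicates 2 left out, 9 markers were again called lower. The Scara5 call was lost without control replicate 5 (adjusted p = 0.064) and without IgG replicate 3 (adjusted p = 0.0687).

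**Figure D2:**
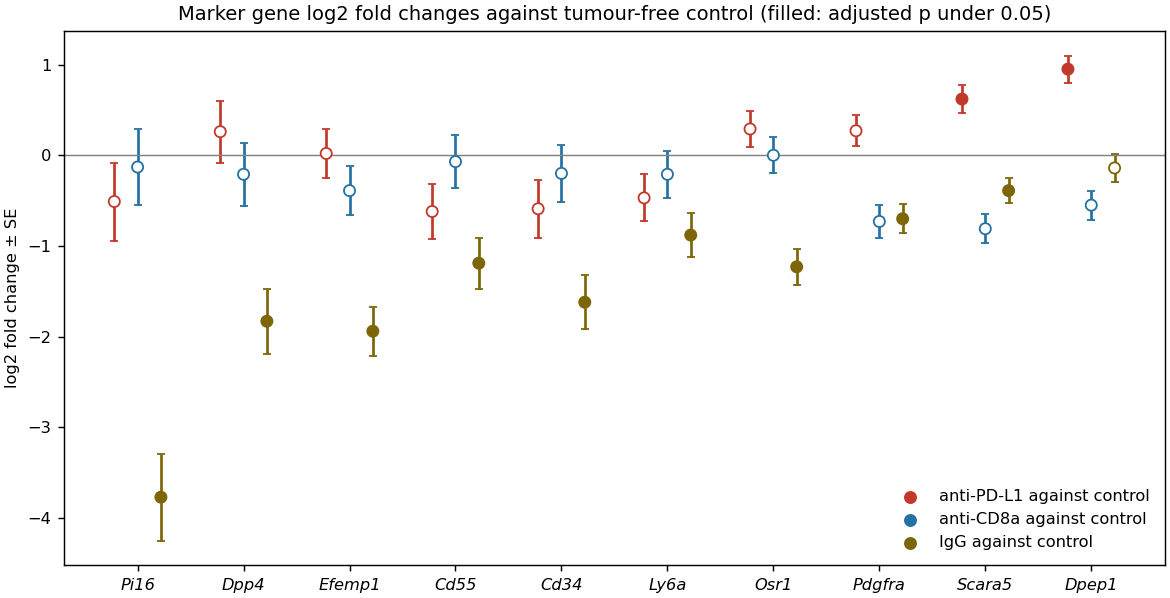
Log2 fold change of each marker against control, in edgeR, for anti-PD-L1, anti-CD8a and IgG. Points are estimates and bars are ± 1 SE, and filled points passed an adjusted p of 0.05. Values for IgG run from -3.77 (Pi16) to -0.14 (Dpep1), and filled points for anti-PD-L1 are Dpep1 at 0.95 and Scara5 at 0.62.

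With anti-PD-L1, 2 of the 10 markers were higher than in control and none was lower. Of all genes tested, 20.8% were called higher, 13.9% lower and 34.7% in either direction, so these counts are near or below the background. Dpep1 and Scara5 are both among the 5 picked genes, and their anti-PD-L1 values were used in that choice, so their tests are not independent support. None of the 5 genes that were not picked passed. Ranges lay above control for 2 markers and below it for 1, against 21.0% and 16.8% of all genes. Dpep1 rose to 50.4 ± 7.45 CPM (SD, n = 3) with anti-PD-L1, against 26.0 ± 4.39 CPM (SD, n = 5) in control, a log2 fold change of 0.95 ± 0.15 (adjusted p = 0.000384). Scara5 rose to 45.1 ± 5.89 CPM (SD, n = 3) with anti-PD-L1, against 29.3 ± 4.05 CPM (SD, n = 5) in control, by 0.62 ± 0.15 in log2 (adjusted p = 0.00485). Both gene calls held in all 15 alternative fits. Pdgfra was at 0.27 ± 0.17 (adjusted p = 0.229), and Cd55 was at -0.62 ± 0.30 (adjusted p = 0.113) although its ranges did not overlap. The remaining 6 markers were between -0.59 and 0.29 in log2, with adjusted p from 0.158 to 0.955. Without anti-PD-L1 replicate 3, Pi16 passed at -1.64 (adjusted p = 0.00204) and Cd34 at -0.95 (adjusted p = 0.047). With all libraries Pi16 was at -0.51 ± 0.43 (adjusted p = 0.372), so its value in this group rests on that library. With both replicates 2 left out, 2 markers were again called higher and 0 lower.

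With anti-CD8a, none of the 10 markers passed against control in edgeR. The comparison had 2 called genes among 14372 (0.0139%, and 0.00696% in each direction), with 1109 at an unadjusted p under 0.05, and 68 genes were called by DESeq2. Scara5 had 16.7 ± 2.93 CPM (SD, n = 3) with anti-CD8a and 29.3 ± 4.05 CPM (SD, n = 5) in control, a log2 fold change of -0.81 ± 0.16 (adjusted p = 0.119 in edgeR, 0.00164 in DESeq2). Pdgfra had 17.8 ± 3.10 CPM (SD, n = 3) with anti-CD8a and 29.5 ± 4.96 CPM (SD, n = 5) in control, at -0.73 ± 0.18 (adjusted p = 0.223 in edgeR, 0.0285 in DESeq2). Both had ranges below control, which 4.38% of all genes had, and none had a range above, against 5.18%. Dpep1 was at -0.55 ± 0.16 (adjusted p = 0.363). These were the 3 markers with an unadjusted p under 0.05. Of them, Scara5 and Dpep1 were chosen by levels that include those with anti-CD8a, so their tests are not independent support. Efemp1 was at -0.39 ± 0.27, and the other 6 markers, Pi16 among them, were within 0.21 of 0 in log2. Misses here do not show that levels were alike.

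Between the antibody groups, tests are given for Pdgfra, Dpp4, Cd34, Ly6a and Cd55 only. The comparisons share libraries with each other and with those against control. In anti-PD-L1 against IgG, 2 of these 5 rose, where 3.96% of all genes were called higher, 1.54% lower and 5.50% in either direction. Pdgfra had 35.5 ± 7.18 CPM (SD, n = 3) with anti-PD-L1 and 18.1 ± 2.37 CPM (SD, n = 4) with IgG, a log2 fold change of 0.97 ± 0.18 (adjusted p = 0.0088). Dpp4 had 5.47 ± 2.87 CPM (SD, n = 3) with anti-PD-L1 and 1.27 ± 0.652 CPM (SD, n = 4) with IgG, at 2.10 ± 0.39 (adjusted p = 0.00939). Cd34 was at 1.03 ± 0.33 (adjusted p = 0.0689), Cd55 at 0.56 ± 0.30 (adjusted p = 0.244) and Ly6a at 0.40 ± 0.27 (adjusted p = 0.336). Without anti-PD-L1 replicate 3 neither call passed, with adjusted p of 0.0532 for Pdgfra and 0.0535 for Dpp4, and neither passed in the fit of these 2 groups alone (0.0596 for Pdgfra and 0.0879 for Dpp4). With both replicates 2 left out, or IgG replicate 2 alone, 4 of the 5 passed, Cd34 and Cd55 in addition. Calls over all genes also rose in these fits, to 4215 and 2604 genes, against 791 in the main fit. The picked genes were higher with anti-PD-L1 by 3.26 for Pi16, 1.97 for Efemp1, 1.51 for Osr1, 1.09 for Dpep1 and 1.01 for Scara5 in log2, differences of the kind for which they were chosen. All 5 had ranges above IgG, which that choice favours, so they are not set against a share of all genes. Of the genes not picked, Pdgfra and Dpp4 had ranges above IgG and none below. Over all genes 7.41% had ranges above and 4.48% below.

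In anti-CD8a against IgG, 4 of the 5 tested markers rose, where 23.2% of all genes were called higher, 24.8% lower and 48.0% in either direction. Cd34 had 65.1 ± 8.07 CPM (SD, n = 3) with anti-CD8a and 24.2 ± 10.1 CPM (SD, n = 4) with IgG, a log2 fold change of 1.43 ± 0.33 (adjusted p = 0.00229). Dpp4 was at 1.63 ± 0.39 (adjusted p = 0.0033) and Cd55 at 1.12 ± 0.30 (adjusted p = 0.00696). Ly6a was at 0.67 ± 0.27 (adjusted p = 0.0485) with overlapping ranges, and this call was lost in 5 of 14 alternatives, with adjusted p up to 0.228. Pdgfra was at -0.03 ± 0.18 (adjusted p = 0.911). Among the picked genes Pi16 was higher with anti-CD8a by 3.64, Efemp1 by 1.55 and Osr1 by 1.22 in log2, while Scara5 was at -0.42 and Dpep1 at -0.41, with ranges below IgG. The choice of the picked genes favours ranges that do not overlap. Of the genes not picked, Dpp4, Cd34 and Cd55 had ranges above IgG and none below. Over all genes 23.1% had ranges above IgG and 24.7% below. With both replicates 2 left out, the count of tested markers called was again 4.

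Setting anti-PD-L1 against anti-CD8a, 1 of the 5 tested markers passed, where 12.1% of all genes were called higher, 7.64% lower and 19.7% in either direction. That was Pdgfra, with 35.5 ± 7.18 CPM with anti-PD-L1 and 17.8 ± 3.10 CPM with anti-CD8a (SD, n = 3 each), a log2 fold change of 1.00 ± 0.19 (adjusted p = 0.00354). The call held in all 13 alternatives. Dpp4 was at 0.47 ± 0.39 (adjusted p = 0.411), Cd34 at -0.40 (adjusted p = 0.436), Ly6a at -0.26 (adjusted p = 0.533) and Cd55 at -0.55 (adjusted p = 0.236), the last with a range below anti-CD8a. Of the picked genes, Dpep1 was higher with anti-PD-L1 by 1.5 and Scara5 by 1.43 in log2, with ranges above anti-CD8a. The choice of the picked genes favours such ranges. Of the genes not picked, Pdgfra had a range above anti-CD8a and Cd55 a range below. Over all genes 21.7% had ranges above and 16.6% below. Efemp1 at 0.41, Osr1 at 0.29 and Pi16 at -0.39 had overlapping ranges. Pdgfra, Scara5 and Dpep1 thus had their highest mean with anti-PD-L1 and their lowest with anti-CD8a, although for Pdgfra anti-CD8a and IgG overlapped. The other 7 markers had their lowest mean in IgG, and of these Dpp4, Osr1 and Efemp1 also had their highest with anti-PD-L1. The Efemp1 medians had another order, 12.0 CPM with anti-PD-L1 and 14.9 CPM in control. Leaving out single libraries put anti-PD-L1 against control as low as -0.41 in log2 for Efemp1 and -0.18 for Dpp4. The grouping by highest and lowest mean was made after the values were seen and was not tested.

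Libraries of 1 group also differed among themselves. Deviations from the group mean in log2 CPM were correlated over the 15 libraries for 45 pairs of markers, and Pearson's r ran from 0.04 to 0.85 with a median of 0.47. The highest values were 0.85 for Pi16 with Dpp4, 0.83 for Pi16 with Efemp1, 0.83 for Pdgfra with Scara5 and 0.81 for Dpp4 with Efemp1. Scara5 with Dpep1 gave 0.69 and Pdgfra with Dpep1 0.62, whereas Pi16 with Dpep1 gave 0.17 and Efemp1 with Dpep1 0.15. The points share library depth and composition. On average over the markers, anti-PD-L1 replicate 3 lay 0.45 above its group mean in log2 and IgG replicate 2 lay 0.48 above its own, while anti-PD-L1 replicate 2 was at -0.51. Anti-PD-L1 replicates 2 and 3 held some of the widest deviations, at -1.44 and 1.55 for Pi16 and -0.89 and 0.75 for Dpp4. For Efemp1 these libraries were at -0.58 and 0.70. With both replicates 2 left out, the median r was 0.24, the values ran from -0.78 to 0.84, and 33 of the 45 pairs were above 0.

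**Figure D3:**
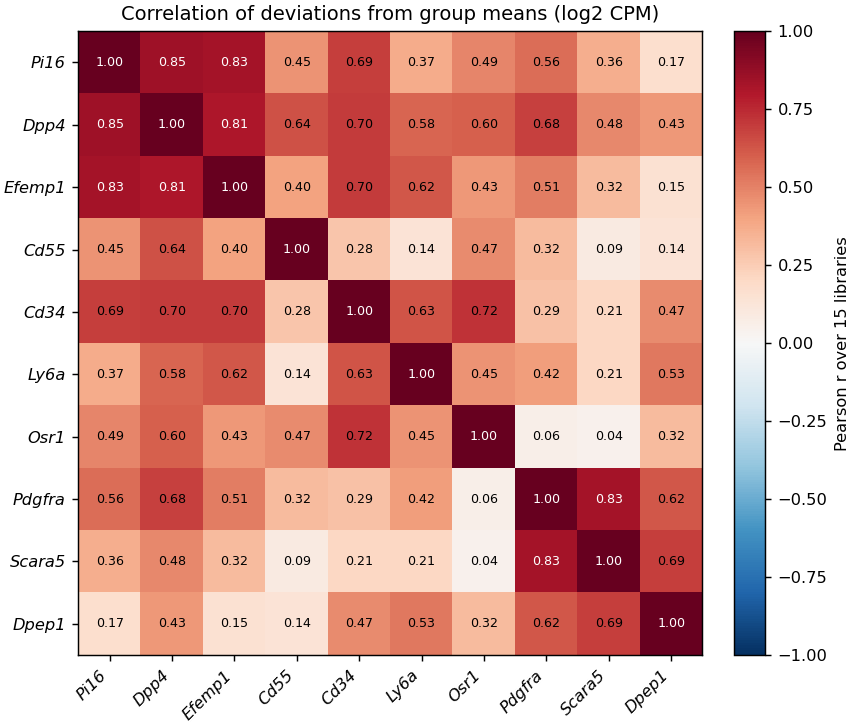
Pearson's r between markers of log2 CPM deviations from group means, over 15 libraries, as a colour scale with the value in each cell. The block of Pi16, Dpp4 and Efemp1 holds values of 0.81 to 0.85, and Pdgfra with Scara5 gives 0.83, while Dpep1 with Pi16 gives 0.17. Pi16, Dpp4 and Efemp1 deviated widely in anti-PD-L1 replicates 2 and 3.

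The deposited RSEM tables also give a transcript length per gene, averaged over a gene's transcripts by abundance, which the choice of genes did not use. Pi16 has 6 annotated transcripts of 397 to 3994 bases. Its length was 2717.3, 2548.8 and 2316.1 bases with anti-PD-L1, 2288.2, 2260.5 and 2214.3 bases with anti-CD8a, 3003.0, 2655.3, 3022.3 and 2825.8 bases with IgG, and 2423.9, 2335.9, 2381.8, 2519.2 and 2348.4 bases in control. All IgG libraries were longer than control and all anti-CD8a libraries shorter. The IgG mean of 2876.6 ± 172 bases (SD, n = 4) differed from the control mean of 2401.8 ± 74.0 bases (SD, n = 5) by 474.8 bases (two-sided exact permutation p = 0.0159, the smallest possible, and 0.268 after adjustment). That IgG length rests on 21 to 43 Pi16 counts per library. Cd55 was longer too, with 2455.0 ± 86.3 bases (SD, n = 4) in IgG and 2289.1 ± 25.2 bases (SD, n = 5) in control (exact permutation p = 0.0159, adjusted 0.268). The adjustment ran over 45 comparisons of markers between groups, 9 of them of picked genes between antibody groups, for which no test is given. None of the other 36 passed. The smallest possible permutation p was 0.0159 with 4 libraries against 5, 0.0357 with 3 against 5 and 0.0571 with 3 against 4. Over 45 comparisons these floors allowed no adjusted p under 0.05 in any group comparison. The misses therefore do not show that lengths were alike.

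**Figure D4:**
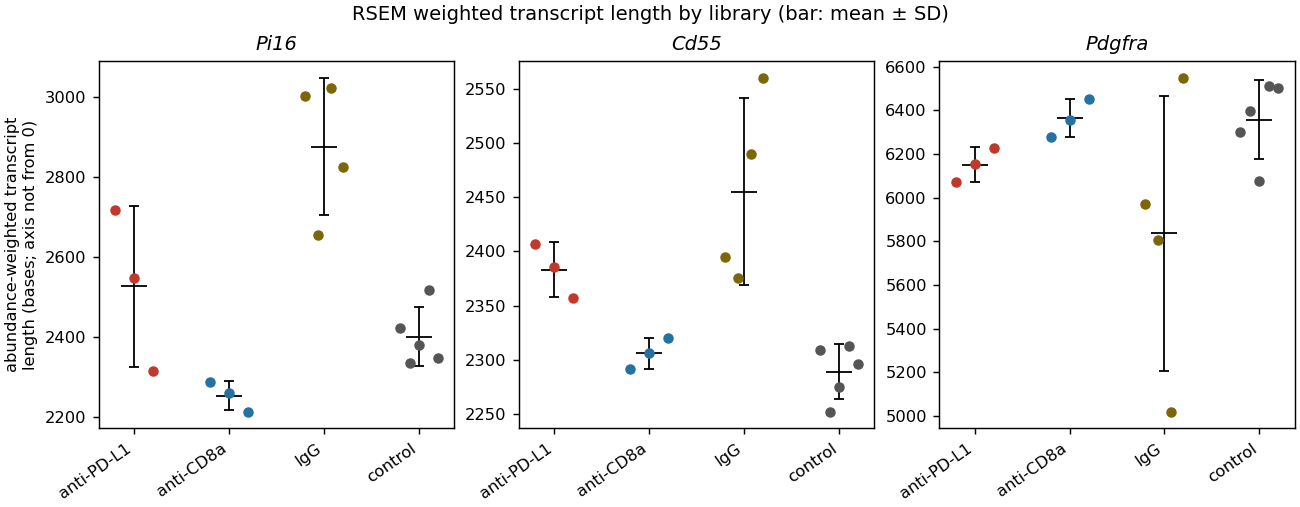
Abundance-weighted transcript length of Pi16, Cd55 and Pdgfra by library, in bases on axes that do not start at 0, for anti-PD-L1 (n = 3), anti-CD8a (n = 3), IgG (n = 4) and control (n = 5), with points for libraries and bars for mean ± SD. Pi16 lies at 2655.3 to 3022.3 bases in IgG, above all control libraries at 2335.9 to 2519.2 bases.

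Overlapping genes could share reads with some markers. Antisense genes over Pdgfra, Pi16, Dpp4, Cd34 and Cd55 reached at most 8.03 counts in any library. Dpep1 lies within the longer gene model Gm20388 on the same strand, which held up to 744.82 counts, so the split of reads between them could be uncertain. The expected counts of Dpep1 were nevertheless whole numbers in every library. They were not whole in 6 libraries for Cd34, 5 for Pi16, 3 for Pdgfra and 1 each for Dpp4 and Cd55.

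The other members of the platelet-derived growth factor family were also followed, 6 genes in all. In IgG against control 3 of the 6 fell and none rose, where 28.4% of all genes were called lower and 30.2% higher. They were Pdgfd, a ligand, at -1.58 ± 0.28 in log2 (adjusted p = 0.000197), Pdgfb, a ligand made by endothelium, at -1.0 ± 0.23 (adjusted p = 0.00176), and the receptor-like Pdgfrl at -0.77 ± 0.32 (adjusted p = 0.0463). Pdgfd also fell in anti-PD-L1 against control, by 1.44 ± 0.30 (adjusted p = 0.00229), the only call among the 6, where 13.9% of all genes were called lower and 20.8% higher. In anti-CD8a against control none of the 6 passed, where 0.0139% of all genes did. Pdgfc, a ligand of Pdgfra, rose in anti-PD-L1 against IgG by 1.27 ± 0.32 (adjusted p = 0.0348), the only 1 of the 6, where 3.96% of all genes were called higher. Pdgfb and Pdgfd rose in anti-CD8a against IgG by 1.20 ± 0.26 and 0.93 ± 0.31 (adjusted p = 0.00144 and 0.0224), 2 of the 6, where 23.2% of all genes were called higher. None of the 6 passed in anti-PD-L1 against anti-CD8a, where 19.7% of all genes did.

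Of 26 further fibroblast and progenitor genes, 24 were tested, and Tcf21 was at 0 in every library. This list, like the other lists, was chosen with earlier results of these data known, so its counts are not independent support. In IgG against control 15 of the 24 fell and none rose, against 28.4% and 30.2% of all genes, with a median log2 change of -0.99. Thy1, a surface marker of fibroblasts, fell by 3.69 ± 0.38 (adjusted p = 1.71e-06) and Fbn1, the microfibril protein fibrillin, by 2.73 ± 0.28 (adjusted p = 1.68e-06). In anti-PD-L1 against control 4 rose and 6 fell, against 20.8% and 13.9% of all genes, with a median of -0.19. The complement gene C3 rose by 1.51 ± 0.26 (adjusted p = 0.000552), while Thy1 fell by 2.19 ± 0.36 (adjusted p = 0.000465). In anti-CD8a against control none of the 24 passed, against 0.0139% of all genes, with a median of -0.40. In anti-PD-L1 against IgG 15 rose and none fell (median 1.09), against 3.96% and 1.54% of all genes. In anti-CD8a against IgG 11 rose and 1 fell (median 0.47), against 23.2% and 24.8%. In anti-PD-L1 against anti-CD8a 5 rose and 2 fell (median 0.06), against 12.1% and 7.64%. Procr, the endothelial protein C receptor, rose there by 1.36 ± 0.22 (adjusted p = 0.00136), and Dcn, the matrix proteoglycan decorin, by 1.00 ± 0.18 (adjusted p = 0.00254).

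**Figure D5:**
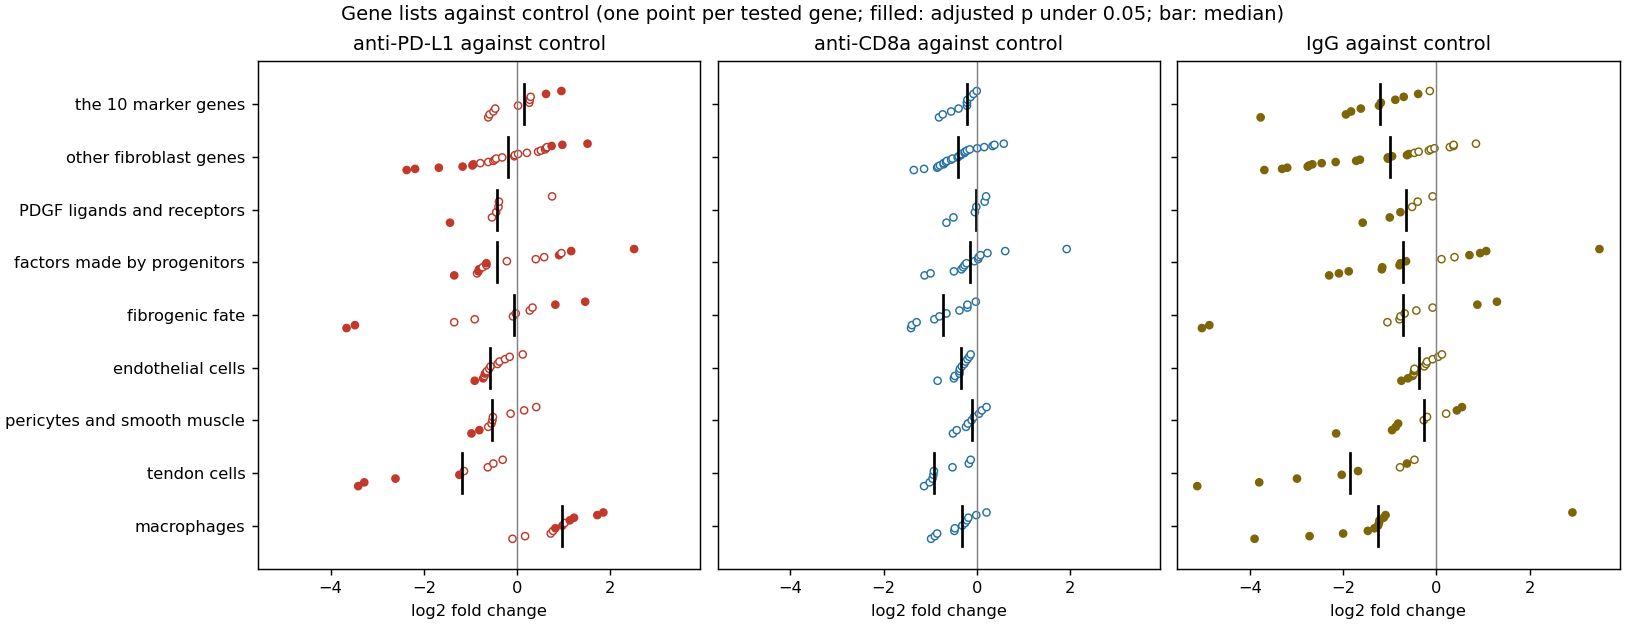
Log2 fold change of the markers and of lists of related genes and other cell types in the 3 comparisons with control, with 1 point per gene, filled where the adjusted p was under 0.05, and a bar at the median. In IgG against control the medians are -1.21 for the 10 markers and -0.99 for the further fibroblast genes. Of the markers, 5 were chosen by their levels in the antibody groups, IgG among them.

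Of 14 tested genes for factors that these progenitors are known to make, 4 rose and 8 fell in IgG against control, where 30.2% of all genes were called higher and 28.4% lower. Il33, an alarmin, fell by 2.30 ± 0.41 (adjusted p = 0.000198), Wnt5a by 2.09 ± 0.27 (adjusted p = 1.15e-05) and Il15, a cytokine for lymphocytes, by 1.88 ± 0.23 (adjusted p = 6.32e-06). Il6, a cytokine, was called higher (adjusted p = 0.000929), at 0.241 to 1.303 CPM in IgG, against 0 to 0.108 CPM in control. The control libraries were all under the level of 3 counts, so no fold is given. In anti-PD-L1 against control 3 rose, Bmp4 among them at 1.16 ± 0.25 (adjusted p = 0.00263), and 4 fell, against 20.8% and 13.9% of all genes. Against IgG, 2 rose with anti-PD-L1, where 3.96% of all genes did, Il33 by 1.64 ± 0.44 (adjusted p = 0.043) and Il15 by 1.22 ± 0.25 (adjusted p = 0.015), and 6 rose and 2 fell with anti-CD8a, where 23.2% of all genes were called higher and 24.8% lower. None of the 14 passed in anti-CD8a against control, against 0.0139% of all genes. In anti-PD-L1 against anti-CD8a 3 rose and 2 fell, against 12.1% and 7.64%.

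Of 10 tested genes of the fibrogenic fate, 2 rose and 2 fell in IgG against control, both below the shares of all genes called higher (30.2%) and lower (28.4%). The fibrillar collagen genes Col3a1 and Col1a1 fell by 5.03 ± 0.49 and 4.87 ± 0.53 (adjusted p = 1.33e-06 and 2.6e-06). Tgfbr2 rose by 0.88 ± 0.17 (adjusted p = 0.000398) and Lox, which crosslinks collagen, by 1.3 ± 0.41 (adjusted p = 0.0122), both with overlapping ranges. In anti-PD-L1 against control 2 rose and 2 fell, against 20.8% and 13.9% of all genes. Col3a1 fell there by 3.66 ± 0.51 and Col1a1 by 3.48 ± 0.54 (adjusted p = 0.000146 and 0.000288). In anti-PD-L1 against anti-CD8a 3 rose and 2 fell, against 12.1% and 7.64% of all genes, with Col1a1 at -2.56 ± 0.54 (adjusted p = 0.00584) and Lox at 2.11 ± 0.52 (adjusted p = 0.0119). Of 9 tested adipocyte genes, 1 rose in IgG against control, Lpl, and none fell, against 30.2% and 28.4% of all genes. In anti-PD-L1 against control 4 rose and 1 fell, against 20.8% and 13.9% of all genes. Adipoq, an adipocyte hormone, rose there by 2.75 ± 0.82 (adjusted p = 0.0169), with overlapping ranges.

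Genes of other cell types were also called in some of these comparisons, and their part in the results for the progenitor markers was not tested. In IgG against control, their counts stand against 30.2% of all genes called higher and 28.4% called lower. Of 12 endothelial genes, which matter for Cd34 and Ly6a, 4 fell in IgG against control. Their summed levels were 286.1 to 436 CPM in IgG and 389 to 570 CPM in control. In anti-PD-L1 against control 3 of the 12 fell and none rose, against 13.9% and 20.8% of all genes. None of the 12 passed in anti-CD8a against IgG, where 48.0% of all genes did. Summed endothelial levels were 248 to 413 CPM with anti-PD-L1 and 297 to 516 CPM with anti-CD8a, and no endothelial gene was at 0. Of 11 tested macrophage genes, 1 rose and 10 fell in IgG against control, and 10 rose in anti-PD-L1 against IgG, where 3.96% of all genes did. Their summed level was 203 to 646 CPM with anti-PD-L1, 79.1 to 245.5 CPM with anti-CD8a, 69.5 to 107 CPM with IgG and 109 to 203 CPM in control. Of 8 tendon genes 6 fell, and of 8 tested Schwann cell genes 6 fell, in IgG against control. Among 9 pericyte and smooth muscle genes 2 rose and 4 fell, and among 8 satellite cell genes 2 rose and 4 fell, in the same comparison. Des, the muscle fibre gene named above, was 1 of the 2 pericyte and smooth muscle genes that rose. Higd1b, Rgs5 and Cspg4 fell in IgG against control. Neither of the 2 tested mesothelial genes passed there, and 1 of 2 tested T cell genes fell. T cell genes summed to at most 6.47 CPM in any library, and Cd8a to at most 0.23 CPM.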

How the data were processed

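Gene values of 15 muscle libraries were used in 4 labelled groups. Per the submitters' processing notes, reads were processed with Trim Galore, STAR 2.7.9a and RSEM 1.3.3. Which genome build and annotation they used is not given in the sources used here. The deposited RSEM expected counts of 55416 genes were rounded to whole numbers, since 19.8% to 22.8% of non-zero values in a library were not whole, and TPM was used as deposited by the authors. Symbols came from GENCODE M21 (52083 IDs matched, 3333 did not).

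A single edgeR 4.0.16 model of all 4 groups (R 4.3.3, TMM, filterByExpr, 14372 genes kept, 11 residual degrees of freedom) gave quasi-likelihood tests, with p-values adjusted by Benjamini-Hochberg over all genes of each of 6 comparisons. A gene was called at an adjusted p under 0.05. SE is the absolute log2 fold change over the square root of F. The fit was tested on simulated data. Transcript lengths, where a gene had at least 10 counts in every library, were compared by two-sided exact permutation tests (SciPy 1.17.1).

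Members, lists and tests were chosen with earlier results of these data known. Named genes are all 10 markers and, of each of 13 lists, up to 4 called genes of smallest adjusted p in a comparison, with the 10 genes most like the markers by level and the 10 by deviation, of which 1 is not reported here. Alternatives were other normalizations, no filter, DESeq2 1.42.0, fits of 2 groups alone, a replicate block and libraries left out.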

Additional observations from a re-analysis of the deposited data

Results flagged for a closer look

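Of 36 sets of values in groups of 4 or 5 libraries that were examined for a library far from the rest, 3 stood out, and chance alone marks about 1 in 20 sets. All 3 were transcript lengths in IgG. Dpp4 had 3303.6 bases in IgG replicate 1, while the other IgG libraries were at 5268.0 bases, and that library held 15 Dpp4 counts. Osr1 had 1157.5 bases in IgG replicate 1, against 2012.0 bases in the other IgG libraries, with 16 Osr1 counts. Cd34 had 2384.0 bases in IgG replicate 2, against 2463.1 to 2464.3 bases in the other IgG libraries. No marker's CPM level stood out in this way.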

How the results depend on the processing

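In IgG against control, the calls of Pdgfra, Pi16, Dpp4, Cd34, Ly6a, Osr1, Efemp1 and Cd55 held in all 16 alternatives, and no result reversed. Scara5 lost its call there under the replicate block (adjusted p = 0.101 in edgeR), and Dpep1 passed with upper-quartile factors (-0.39, adjusted p = 0.045), which shifted the median of all genes to -0.27. In anti-PD-L1 against control, the fit of the 2 groups alone called 1 marker lower (Cd55), and leaving out single libraries called 0 to 2 lower and 3013 (without anti-PD-L1 replicate 2) to 4931 genes, against 4988. In anti-CD8a against control, 7 genes were called with upper-quartile factors, 65 with no filter, 56 in the fit of the 2 groups, 68 in DESeq2, 0 with the replicate block and 0 to 2 with single libraries left out, against 2. Markers called lower there were 1 with no filter, 1 in the fit of the 2 groups (Scara5 in both) and 2 in DESeq2. In anti-PD-L1 against IgG, 0 markers passed with the replicate block (adjusted p = 0.0534 for Pdgfra and 0.0607 for Dpp4) and 0 in the fit of the 2 groups, and 4 passed with both replicates 2 left out. Genes called were 69, 37 and 4215 in these fits and 1787 in DESeq2, against 791, and leaving out single libraries gave 147 to 2712 genes and 0 to 4 markers. In anti-PD-L1 against anti-CD8a, 1722 genes were called with the block, 1712 in the fit of the 2 groups (which called 1 marker lower, Cd55) and 1758 with both replicates 2 left out, against 2836, and 1226 to 3011 with single libraries left out. A shared origin was not seen by replicate number. In 2 of 19 pairings of libraries from different groups, the same number correlated best, with r from -0.345 to 0.18. Groups of 3 to 5 libraries are small for such a check, so the absence of a shared origin is not shown. The replicate block changed no other count of markers by more than 1.5 times. The deposited TPM put the median of all genes at 0.43 in anti-PD-L1 against control, against 0.05 with TMM, and at 0.21 in IgG against control, against -0.02. Log2 ratios of mean TPM for anti-PD-L1 over control were 0.68 for Pdgfra, -0.09 for Ly6a, 0.99 for Scara5, 0.65 for Osr1, 1.33 for Dpep1 and -0.31 for Cd55, and for IgG over control -0.38 for Pdgfra and -0.80 for Osr1. The median r between markers was 0.24, against 0.47, with both replicates 2 left out. The cause of these changes was not tested. Low counts of Pi16, Dpp4 and Osr1 in IgG limit their precision.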

Other observations

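The genes whose level over the 15 libraries was most like the mean standardised log2 CPM of the 10 markers, among 11451 ranked, were C1s1 (Pearson's r 0.969), Ogn (0.957), Sdc2 (0.954), Folr2 (0.950), Pf4 (0.949), Galnt16 (0.946), Cd300ld (0.945), Fn1 (0.941), Pdpn (0.940) and Gas7 (0.939). C1s1, a complement protease, averaged 35.4 CPM with anti-PD-L1, 28.1 CPM with anti-CD8a, 12.9 CPM with IgG and 33.1 CPM in control. For deviations from group means, among the most alike were Rap2a (0.948), Lama4 (0.937), Tuba1a (0.931), Pea15a (0.924), Rnase4 (0.923), Ctso (0.922), Pamr1 (0.917), Epb41l1 (0.902) and Gmpr2 (0.895). Folr2 and Pf4 also stand in the macrophage list. These correlations share library depth and composition and are given as descriptions.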
